A study of Mus musculus with 36 samples.

Results

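Halofuginone was given alone to mouse embryonic fibroblasts that lack the kinase PERK, and the RNA of 3 such libraries was compared with that of 3 libraries of the same cells given the solvent DMSO. These 6 libraries were chosen by the genotype and treatment in the labels, out of 36 libraries in all, and every gene with enough counts was compared between them. The 36 libraries are bulk RNA-seq libraries of fibroblasts of 2 genotypes, labelled WT and PERK -/-, under 6 treatments with 3 replicates each. The treatments were DMSO (the vehicle), halofuginone, BtdCPU and thapsigargin, each alone, and thapsigargin together with either compound. Beside the 6 libraries, 5 further groups were used: PERK-null cells with BtdCPU alone, with thapsigargin alone and with halofuginone plus thapsigargin, and wild-type cells with DMSO and with halofuginone. The labels state neither dose, exposure time nor batch, and they do not say how the PERK gene was disrupted, whether each genotype is 1 line or several, or whether replicates were separate cultures. The p-values below therefore measure only the spread between these libraries, which may be technical, and a difference between the genotypes cannot be told apart from a difference between the lines that carry them.

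In the integrated stress response (ISR), kinases that sense different stresses phosphorylate the translation factor eIF2, which lowers protein synthesis but raises translation of the transcription factor ATF4. PERK senses stress of the endoplasmic reticulum (ER), GCN2 senses uncharged tRNA, HRI responds to heme shortage and mitochondrial stress, and PKR senses double-stranded RNA. Halofuginone occupies the prolyl-tRNA synthetase site of EPRS, so that uncharged proline tRNA accumulates and GCN2 is activated, whereas BtdCPU is an activator of HRI. ATF4 and its C/EBP partners are known for raising genes of amino acid synthesis, amino acid import and tRNA charging. The comparison asks, as the study's title states its subject, what such a compound does in cells that lack PERK.

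Eif2ak3, the gene of PERK, stood at 9.37, 9.67 and 10.8 CPM (counts scaled to a common library size) in the PERK-null DMSO libraries and at 10.1, 7.66 and 10.1 CPM in the PERK-null halofuginone libraries. All 6 values lay below those of the wild-type DMSO libraries, 30.3, 32.4 and 30.7 CPM. The 6 libraries held 35034352 to 36311344 counts, and 13568 to 13714 genes had at least 10 counts. Log2 CPM of libraries of the same group correlated with Pearson's r of 0.989 to 0.992 across genes, and libraries of different groups with 0.966 to 0.975. The 10 most abundant genes took 6.07% to 6.36% of the counts in the DMSO libraries and 5.25% to 5.38% in the halofuginone libraries, and the mRNAs of mitochondrial DNA took 3.44% to 4.32% and 3.25% to 3.60%. Of 10 fibroblast markers, 9 had at least 10 counts in every library, and their summed level was 5428 to 5896 CPM with DMSO and 4513 to 5016 CPM with halofuginone. Summed markers of 4 other cell types stayed under 2 CPM in every library. They were epithelial (7 genes, 0.254 to 0.529 CPM with DMSO and 0.22 to 1.00 CPM with halofuginone, with Epcam, Krt5, Cldn4 and Esrp1 at 3 counts or fewer in each library), endothelial (6 genes, 0.622 to 1.17 and 0.754 to 1.96 CPM, Tie1 likewise), muscle (6 genes, 0.226 to 0.529 and 0.196 to 0.361 CPM, Myod1, Myog, Myf5, Pax7 and Ckm likewise) and pluripotency markers (6 genes, 0.396 to 0.529 and 0.278 to 0.523 CPM, Pou5f1, Sox2, Zfp42, Dppa5a and Esrrb likewise). Summed blood markers (6 of 7 in the table) lay at 7.25 to 10.1 CPM with DMSO and 4.92 to 5.89 CPM with halofuginone, with Cd3e at 3 counts or fewer. Neural markers, 6 in all, summed to 77.0 to 85.7 CPM and 87.8 to 105 CPM, with Sox10 and Rbfox3 at 3 counts or fewer. The part of these shifts in the results was not tested, and in bulk samples fewer cells of a type and less RNA per cell cannot be told apart.

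Halofuginone changed 6785 of 16065 tested genes in PERK-null cells (42.2%, edgeR adjusted p under 0.05), 3413 of them higher (21.2%) and 3372 lower (21.0%). Of these, 1114 rose and 940 fell by more than 2-fold, 401 rose and 176 fell by more than 4-fold, and 180 rose and 56 fell by more than 8-fold. The median log2 fold change over all tested genes was 0, and the interquartile range ran from -0.42 to 0.44. The shares of 21.2% higher and 21.0% lower are the background for the counts of each gene list in this comparison. CPM did not overlap between the 2 groups for 6564 of the called genes (96.7%) and for 8693 of all tested genes (54.1%). For the ISR factors, secreted factors, histones and ribosome biogenesis genes described below, 0 members were lower, and for lipid synthesis and respiratory complex genes 0 were higher, by edgeR, by DESeq2 and at an unadjusted edgeR p under 0.05. Read against a fold of at least 1.5 in place of any change, 1026 genes were higher and 848 lower.

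The strongest rises combined stress genes, metabolic genes and secreted proteins. Among called genes whose mean log2 CPM was 2 or more, with over 3 counts in each library of the lower group, Gadd45a, a stress sensor that holds the cell cycle, rose most, 34.9-fold. It stood at 8.93, 7.83 and 8.50 CPM with DMSO and at 265, 295 and 322 CPM with halofuginone, a log2 fold change of 5.13 ± 0.25 (SE; edgeR adjusted p = 1.12e-15). Atf3, a transcription factor of the ATF/CREB family raised by stress, went from 2.19, 2.92 and 2.69 CPM to 55.7, 55.0 and 77.6 CPM (4.59 ± 0.23 log2). For both genes the lowest treated library lay many times above the highest control library. The choice of these genes already requires that the 2 groups do not overlap. Gadd45a overlaps the gene E230016M11Rik, so its counts can include reads of that neighbour.

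Cdsn, which encodes the adhesion protein corneodesmosin, rose from 4.42, 3.86 and 5.92 CPM to 84.4, 96.1 and 104 CPM (4.33 ± 0.35 log2). Acot2, a mitochondrial acyl-CoA thioesterase, rose from 1.67, 1.93 and 1.29 CPM to 21.1, 21.8 and 20.3 CPM (3.69 ± 0.27 log2), and its 3 treated libraries lay close together. Txnip, an inhibitor of thioredoxin and of glucose uptake, rose from 20.6, 19.0 and 23.2 CPM to 252, 181 and 339 CPM (3.62 ± 0.35 log2), with a wide spread among the treated libraries. Gm15441 overlaps Txnip and moved with it (3.49 ± 0.27 log2), so the reads of these 2 genes may not be separable.

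Vgf, the precursor of secreted neuropeptides, rose by 3.49 log2 and Vldlr, a lipoprotein receptor, by 3.42. Ndrg1, a gene known to respond to hypoxia and differentiation, rose by 3.42. Slc7a11, Trib3 and Ppp1r15a complete the 12 largest rises and are described with their groups. The 12 rises ran from 10.5-fold to 34.9-fold.

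Within the same limit on level the largest falls were smaller, and the 11 described here ran from 4.60-fold to 9.25-fold, 3 of them in cholesterol synthesis. Hspa1b, a heat shock protein of the HSP70 family, fell from 32.3, 31.6 and 22.2 CPM to 3.05, 4.48 and 1.78 CPM (-3.21 ± 0.29 log2, edgeR adjusted p = 2e-10). Its near-identical copy Hspa1a, at 13.8, 14.5 and 9.47 CPM and 1.19, 1.90 and 0.713 CPM, moved alike (-3.31 ± 0.31 log2), and the counts of both are uncertain because reads can be split between them. Polr2a, the largest subunit of RNA polymerase II, fell from 439.5, 333 and 469 CPM to 81.1, 83.5 and 70.9 CPM (-2.40 ± 0.23 log2). In all of these the 3 treated libraries lay below the 3 control libraries, which the choice of Hspa1b and Polr2a requires.

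Dennd3, an exchange factor for Rab GTPases, fell from 13.2, 12.5 and 16.2 CPM to 1.65, 1.51 and 2.14 CPM (-2.98 ± 0.29 log2). Lpin1, a phosphatidate phosphatase of lipid synthesis, changed by -2.23 log2, Btd, which encodes biotinidase, by -2.20, and Pxylp1, a phosphatase of proteoglycan synthesis, by -2.31. The log2 fold change was -2.58 for Tmem119 and -2.41 for Wdr6. Wdr6 overlaps Dalrd3.

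**Figure D1:**
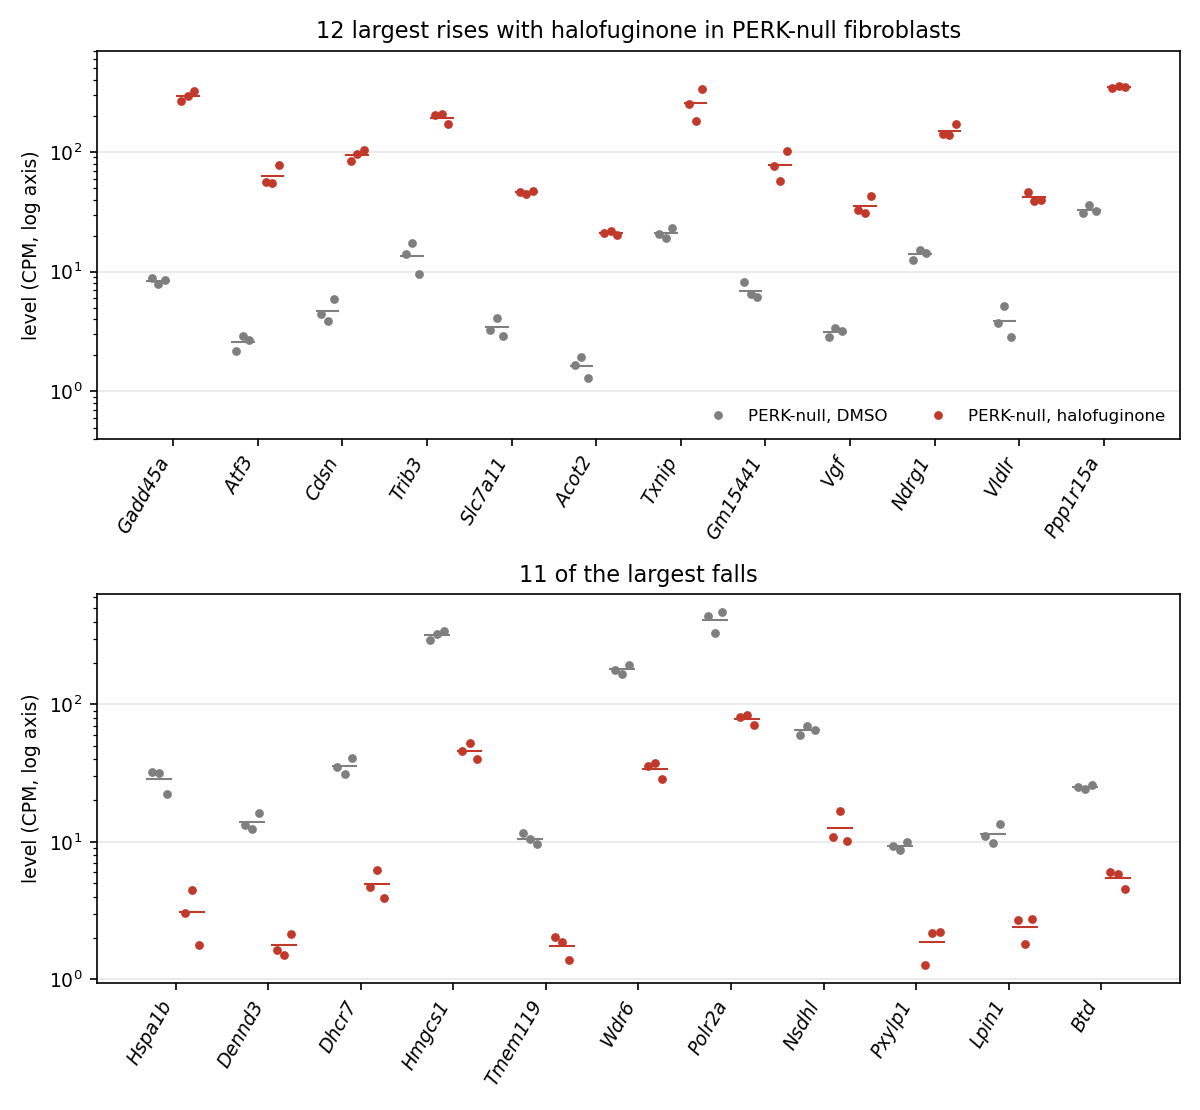
Level of the 12 largest rises (top) and 11 of the largest falls (bottom) with halofuginone in PERK-null fibroblasts among called genes of mean log2 CPM 2 or more, in CPM on a log axis. Points are libraries (3 per group), bars are group means. In each of these genes all 3 halofuginone libraries lie on 1 side of all 3 DMSO libraries, which the choice of the genes requires.

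Of 15 ISR transcription factors and feedback regulators, 14 rose and none fell, against 21.2% of all tested genes higher, and the median log2 fold change was 1.69. Atf4 itself rose little: it stood at 533, 646 and 566 CPM with DMSO and at 869.9, 868 and 808 CPM with halofuginone (0.55 ± 0.11 log2, edgeR adjusted p = 0.000111). Its mRNA is known to be controlled mainly at translation, which was not measured here. Ddit3, which encodes the transcription factor CHOP, rose from 22.2, 21.6 and 18.5 CPM to 119, 128 and 115 CPM (2.54 ± 0.22 log2). Ddit3 overlaps Mars and Mbd6, so its counts can include reads of these neighbours.

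The genes downstream rose further. Trib3, a pseudokinase that restrains ATF4 and AKT, rose from 14.0, 17.4 and 9.52 CPM to 203, 208 and 169.8 CPM (3.83 ± 0.30 log2). Chac1, which degrades glutathione, rose from 10.1, 11.4 and 8.66 CPM to 98.4, 86.3 and 109 CPM (3.29 ± 0.22 log2). Ppp1r15a, the GADD34 subunit that brings a phosphatase to eIF2 and so ends the response, rose from 30.7, 35.9 and 32.3 CPM to 340.5, 354 and 348 CPM (3.40 ± 0.23 log2). The treated libraries of Ppp1r15a lay close together and above the controls, and its choice among the largest rises requires that the groups do not overlap. The constitutive partner Ppp1r15b rose by 0.69 only, Sesn2, an inhibitor of mTORC1, by 2.83, and Nupr1, a stress-induced chromatin protein, by 2.26. Cebpg and Cebpb, partners of ATF4, rose by 1.69 and 1.20, and Eif4ebp1, a repressor of cap-dependent translation, by 1.15. Ddit4 had a log2 fold change of 0.60 that did not pass the threshold.

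The machinery upstream of ATF4 went both ways. Of 14 genes of eIF2 kinases, eIF2 and its exchange factor eIF2B, 4 rose (28.6%) and 2 fell (14.3%). The shares of all tested genes were 21.2% and 21.0%, and the list's median was 0.13. None of the 4 kinase genes passed the threshold: log2 fold changes were -0.21 for Eif2ak4 (GCN2), -0.19 for Eif2ak1 (HRI), 0.10 for Eif2ak2 (PKR) and -0.10 for Eif2ak3. Eif2s2, the beta subunit of eIF2, rose from 123, 137 and 98.8 CPM to 219, 207 and 212 CPM, and the eIF2B subunits went both ways, Eif2b3 by 0.89 and Eif2b2 by -0.63. Impact, an inhibitor of GCN2, rose from 0.956, 0.744 and 0.995 CPM to 2.37, 1.73 and 3.35 CPM (1.46 ± 0.24 log2), still a low level.

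Eprs, which encodes the enzyme that halofuginone inhibits, rose from 453, 427 and 426 CPM to 1039, 999 and 1170 CPM (1.30 ± 0.10 log2, edgeR adjusted p = 1.4e-11). It was 1 of 14 cytosolic aminoacyl-tRNA synthetases, of 20 tested, that rose. The enzymes charge tRNA with amino acids, and their median log2 fold change was 0.91. Tars (threonine) rose from 439, 459 and 403 CPM to 1167, 1154 and 1209 CPM, Sars (serine) from 478, 508 and 483 CPM to 1205, 1329 and 1305 CPM, and Wars (tryptophan) from 72.5, 73.4 and 82.1 CPM to 191, 219 and 192 CPM. The rises of these 3 genes were close to that of Eprs, at 1.44, 1.39 and 1.40 log2. Qars (glutamine) was the synthetase that fell (-0.66), and Kars, Farsa, Vars, Mars and Dars did not pass the threshold. Wars overlaps Wdr25.

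Of 17 mitochondrial synthetases, 5 rose (29.4%, against 21.2% of all tested genes) and 7 fell (41.2%, against 21.0%), with a median of -0.20. Nars2 and Rars2 rose by 0.89 and 0.99, and Aars2 and Lars2 changed by -0.68 and -0.69. Pars2, the mitochondrial prolyl-tRNA synthetase, fell from 6.91, 8.93 and 7.32 CPM to 5.56, 5.88 and 5.54 CPM (-0.45 ± 0.18 log2, edgeR adjusted p = 0.0402), a call lost in 5 of the 6 fits without 1 library. Rars2 overlaps Orc3. The 7 falls became 3 without DMSO library 2, halofuginone library 2 or halofuginone library 3 and 4 without halofuginone library 1.

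Promoters of ATF4-bound genes can hold a composite element that joins a C/EBP site and an ATF site, of which TGATGCAAT is a common form. In the 250 bases before the start of RefSeq genes of GRCm38.p6, matched by symbol or older symbol for 11806 of the 16065 tested genes, either strand was searched for TGATGCAAT and for the looser TGATGNAA, which contains it. TGATGCAAT occurred in 0.267% of the promoters of genes called higher, 0.168% of those not called and 0.0753% of those called lower, beside 0.169% of the 11806 promoters of tested genes and 0.167% of all 32851 promoters in the table. For TGATGNAA the shares were 3.51%, 2.69%, 2.03%, 2.73% and 3.45%. Among genes that rose by more than 2 log2, TGATGCAAT was in 3 of 271 promoters (1.11%) and TGATGNAA in 19 (7.01%). The matches below, each with 10 bases on either side, are shown because they belong to genes of the ISR and amino acid groups that rose. They are written 5′ to 3′ along the gene, and capitals mark the match, which on the opposite strand reads as its reverse complement.
Fgf21: agacccccccATTGCATCAtccgtccagg
Nupr1: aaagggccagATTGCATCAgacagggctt
Pycr1: gccctgtgtaTGATGCAATgcacaaggct
Atf3: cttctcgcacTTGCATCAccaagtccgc
Chac1: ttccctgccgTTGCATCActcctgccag
Asns: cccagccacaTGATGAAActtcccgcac

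The first 3 of these hold the full TGATGCAAT and the last 3 the looser form. The Fgf21 window is chr7:45615612-45615640 on the minus strand, that of Nupr1 chr7:126625563-126625591 (minus) and that of Pycr1 chr11:120643833-120643861 (minus). The Atf3 window is chr1:191183426-191183453 (minus), that of Chac1 chr2:119351039-119351066 (plus) and that of Asns chr6:7693215-7693242 (minus). All lie upstream of the start, with their first matched base at positions -193 to -23 from it. These letters were not found in the windows of Ddit3, Sesn2 and Trib3. Without Fgf21, the genes rose by 1.23 (Pycr1) to 4.59 (Atf3) log2, and Fgf21 is given as counts below.

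Enzymes of serine and one-carbon metabolism rose in 7 of 10 tested cases, with 1 fall and a median of 0.62. Aldh1l2, a mitochondrial folate enzyme, rose from 39.6, 44.6 and 41.5 CPM to 210.5, 220.3 and 228 CPM (2.39 ± 0.16 log2, edgeR adjusted p = 4.33e-13). Psph, the last step of serine synthesis, rose from 43.5, 52.5 and 34.2 CPM to 154, 169 and 140.2 CPM (1.83 ± 0.19 log2), and Mthfd2, a mitochondrial methylene-folate dehydrogenase, by 1.28. Psat1, the transaminase before Psph, started high, at 642, 673 and 615 CPM, and reached 1029, 1132 and 1017 CPM (0.72 ± 0.11 log2). Shmt2, the mitochondrial serine hydroxymethyltransferase, rose by 0.76, whereas its cytosolic counterpart Shmt1 had 0.12 and did not pass. Psph overlaps Cct6a. The fall, that of the cytosolic enzyme Mthfd1 (-0.31), was lost without either of DMSO libraries 1 and 3 and without either of halofuginone libraries 1 and 3.

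Of 8 proline genes, 2 rose (25.0%, against 21.2% of all tested genes) and 3 fell (37.5%, against 21.0%). Both rises were in synthesis from glutamate: Aldh18a1, its first enzyme, went from 288, 276 and 306 CPM to 776, 848 and 799 CPM (1.48 ± 0.11 log2) and Pycr1, a mitochondrial last enzyme, from 16.1, 16.3 and 19.1 CPM to 39.5, 41.1 and 40.1 CPM (1.23 ± 0.17 log2). Pycrl, another last enzyme, had -0.27 and did not pass. Aldh4a1, of proline breakdown, fell from 11.2, 11.5 and 14.2 CPM to 6.29, 5.77 and 5.38 CPM (-1.09 ± 0.17 log2), and Oat, which links ornithine to proline, from 222, 248 and 238 CPM to 134, 129 and 128 CPM (-0.86 ± 0.09 log2). Prodh, the first enzyme of breakdown, had 0.46 and did not pass. The list's median was -0.19.

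Of 13 genes of asparagine synthesis, transamination and transsulfuration, 5 rose (38.5%) and 3 fell (23.1%), with a median of -0.03. The falls were near the 21.0% of all tested genes, and the rises stood against 21.2%. Asns, asparagine synthetase, rose from 456, 459 and 379.6 CPM to 1266, 1276 and 1274 CPM (1.56 ± 0.11 log2). Gpt2, the mitochondrial alanine transaminase, rose from 33.4, 34.2 and 31.9 CPM to 208, 216 and 206 CPM (2.66 ± 0.18 log2), whereas the cytosolic enzyme Gpt fell (-1.48). Cth, which makes cysteine from cystathionine, rose from 31.8, 40.7 and 34.4 CPM to 202, 205 and 204 CPM (2.52 ± 0.24 log2). Cbs, the step before Cth, had counts of 9, 19 and 17 with DMSO and 7, 4 and 0 with halofuginone and did not pass.

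Import of amino acids rose in part. Of 26 tested transporters 13 rose and 5 fell, with a median of 0.60, or 0.81 when 3 genes with a group at 3 counts or fewer in each library were set to their bound or left out. Slc7a11, the cystine and glutamate exchanger, rose from 3.28, 4.08 and 2.93 CPM to 46.0, 44.8 and 47.6 CPM (3.75 ± 0.27 log2, edgeR adjusted p = 2.21e-12). Slc6a9, a glycine transporter, rose from 37.6, 38.4 and 30.6 CPM to 166, 196 and 149.6 CPM (2.26 ± 0.21 log2). Slc7a5 and Slc3a2, the 2 chains of a large neutral amino acid exchanger, rose by 1.96 and 1.29, and Slc7a1, which carries cationic amino acids, by 1.88. Slc38a2, a transporter known to respond to amino acid shortage, had -0.07 and did not pass. Slc1a1, a glutamate transporter, was at 0 counts in the DMSO libraries and at 9, 2 and 8 counts with halofuginone. The halofuginone mean was 2.11 times a floor of 3 counts per library. Since halofuginone library 2 lay below that floor, this is not a lower limit of the fold. Slc6a9 overlaps Ccdc24. The 5 falls became 3 without halofuginone library 2.

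Secreted proteins of the stress response rose in 7 of 8 cases, with a median of 2.73. Fgf21, a metabolic hormone, had 6, 0 and 0 counts in the DMSO libraries and 139, 180 and 223 with halofuginone, a ratio of 88.9 (95% interval 40.6 to 243, counting error only). Gdf15, a stress cytokine that lowers appetite, had 0, 2 and 3 counts and 65, 65 and 73 counts, a ratio of 39.9 (16.8 to 124). Adm2, a peptide of the calcitonin family, rose from 0.628, 0.303 and 0.108 CPM to 10.1, 8.90 and 6.25 CPM, and Angptl6 from 1.67, 2.20 and 1.64 CPM to 16.3, 17.1 and 16.4 CPM (3.17 ± 0.31 log2). In these 4 genes treated and control libraries were far apart. Vegfa, the growth factor of blood vessels, rose by 2.28, and Stc1 had 1.07 and did not pass. Angptl6 overlaps A230050P20Rik.

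Genes of growth arrest and p53 targets rose in 18 of 26 cases (69.2%, against 21.2% of all tested genes), with a median of 0.77. The 5 falls (19.2%) were near the 21.0% of all tested genes. Cdkn1a, the cyclin-dependent kinase inhibitor p21, rose from 4.97, 5.10 and 3.39 CPM to 22.8, 23.0 and 20.3 CPM (2.30 ± 0.15 log2, edgeR adjusted p = 5.5e-13). Gadd45g rose from 15.0, 15.6 and 21.6 CPM to 72.2, 60.2 and 149 CPM (2.43 ± 0.35 log2), with halofuginone library 3 well above the other treated libraries. Pmaip1, which encodes the death-promoting protein NOXA, had 12, 2 and 2 counts with DMSO and 43, 46 and 85 with halofuginone, a ratio of 10.7 (95% interval 6.40 to 19.1, counting error only). Other p53 targets fell, Sesn1 by 1.29, Ccng1 by 0.63 and Phlda3 by 0.66. Cdkn1b, the inhibitor p27, fell by 0.78, and Trp53 itself rose by 0.29, which was lost without DMSO library 2. Of 10 genes of the BCL-2 family, 2 rose, a share near the 21.2% of all tested genes, and 4 fell (40.0%, against 21.0%). Mcl1, which protects against cell death, rose from 114, 121 and 98.3 CPM to 182, 184 and 181 CPM, Bok, which promotes it, fell from 64.5, 68.4 and 63.4 CPM to 36.1, 36.5 and 26.6 CPM, and Bmf had 19, 16 and 39 counts with DMSO and 0, 4 and 2 with halofuginone.

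Of 33 genes of mitosis, 21 fell and 1 rose (median -0.57), and of 38 genes of DNA replication, 18 fell and 2 rose (median -0.31). Kif20a, a kinesin of cytokinesis, fell from 433, 421 and 420.4 CPM to 178, 209 and 149.6 CPM (-1.25 ± 0.14 log2) and Aurkb, a mitotic kinase, from 103, 93.6 and 103 CPM to 51.3, 53.4 and 41.1 CPM (-1.04 ± 0.13 log2). Mki67, the proliferation marker, fell from 485, 379 and 474 CPM to 249.7, 219 and 254 CPM (-0.89 ± 0.16 log2). Each of the other falls in mitosis was under 2-fold. Dna2, a nuclease and helicase, fell from 29.8, 28.9 and 32.1 CPM to 8.50, 8.24 and 5.84 CPM (-2.005 ± 0.255 log2), Ccne1, cyclin E1, by 0.95, Fen1, the flap endonuclease, by 0.94, and Gins3, of the replicative helicase, by 0.95. Mcm2, Mcm3, Mcm4, Mcm6 and Mcm7 of the same helicase did not pass, with log2 fold changes from -0.20 to 0.20. The mitotic rise, that of Ndc80 (0.32), was lost in 5 of the 6 fits without 1 library, in which 0 genes rose. Kif20a overlaps Brd8 and Cdc23, and Fen1 overlaps Tmem258.

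Replication-dependent histone mRNAs moved the other way: 37 of 66 tested rose and none fell, with a median of 1.35 (1.31 when 2 genes with a group at 3 counts or fewer were left out or set to their bound). Hist1h1c, a linker histone, rose from 33.3, 30.5 and 26.5 CPM to 101, 68.2 and 83.5 CPM (1.48 ± 0.24 log2) and Hist1h1d from 1.23, 0.909 and 0.753 CPM to 5.88, 3.46 and 4.31 CPM (2.24 ± 0.40 log2). Hist1h2bn, a core histone H2B gene, rose from 0.273, 0.523 and 0.323 CPM to 1.75, 1.84 and 2.19 CPM (2.36 ± 0.59 log2). Copies of a histone gene share much of their sequence, so single copies are uncertain. Most of these mRNAs end without a poly(A) tail, and the labels name both a step that depletes ribosomal RNA and one that selects mRNA, so how fully they were captured is not given in the sources used here.

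Immediate early genes, the first genes raised by growth factors and stress, rose in 20 of 30 cases and fell in 3, with a median of 0.67. Myc, a transcription factor of growth, rose from 119.5, 120.0 and 134 CPM to 497, 459 and 493 CPM (1.96 ± 0.19 log2, edgeR adjusted p = 1.1e-09). Klf6 and Klf4, zinc finger factors, rose from 65.4, 63.3 and 62.2 CPM to 197, 167 and 258 CPM and from 21.8, 19.5 and 16.6 CPM to 68.8, 58.0 and 57.8 CPM. Egr2 rose by 1.67 and Egr1 by 1.47, whereas Fos (0.65) and Nr4a1 (-0.04) did not pass. Egr2 overlaps Gm32255. Hbegf, a ligand of the EGF receptor, stood at 38.3, 37.6 and 39.5 CPM with DMSO and 240.2, 232 and 276 CPM with halofuginone (2.70 ± 0.19 log2). The falls were those of Spred1, Spred2 and Etv4, and 1 remained without DMSO library 1 or without halofuginone library 3.

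Of 21 chemokine and inflammatory genes 15 rose and 1 fell, with a median of 1.26. Lif, a cytokine of the interleukin-6 family, rose from 7.05, 9.04 and 9.09 CPM to 55.0, 58.0 and 68.5 CPM (2.85 ± 0.15 log2, edgeR adjusted p = 1.77e-15). Il6 itself had 2, 2 and 3 counts with DMSO and 69, 62 and 58 with halofuginone, a ratio of 26.6 (95% interval 12.6 to 67.0, counting error only). Ccl20, a chemokine, had 4, 9 and 2 counts and 79, 74 and 111 counts, a ratio of 17.3 (10.3 to 31.4). Saa3, an acute phase protein, had 2, 4 and 1 counts and 29, 37 and 41 counts, and its call was lost without DMSO library 1 or 3 (edgeR adjusted p = 0.0559 and 0.065). Tslp, an epithelial-type cytokine, rose from 0.41, 0.716 and 0.269 CPM to 2.64, 3.54 and 6.20 CPM, a rise from a low level. Ptgs2 (cyclooxygenase) rose by 2.00, Tnfaip3, an inhibitor of NF-kappaB, by 1.75, and Mmp3, a matrix protease, fell by 0.58. The fall of Mmp3 was lost in 4 of the 6 fits without 1 library.

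Of 23 tested interferon-stimulated genes, 7 rose and 2 fell (30.4% and 8.70%), with a median of 0.82. The shares of all tested genes were 21.2% and 21.0%. Usp18, a negative regulator of interferon signalling, rose from 0.71, 0.771 and 0.135 CPM to 4.94, 7.39 and 6.97 CPM (3.57 ± 0.95 log2, edgeR adjusted p = 0.00299), and Ifi44 from 0.574, 0.496 and 1.10 CPM to 3.78, 4.94 and 4.33 CPM (2.58 ± 0.81 log2, adjusted p = 0.0103). Rsad2 had 0, 2 and 0 counts and 12, 13 and 6 counts, a ratio of 15.2 (95% interval 3.88 to 131), and its call was lost in 4 of the 6 fits without 1 library. Irf1 fell by 0.96. Fitted on the 2 groups alone, or with no filter on low counts, 12 genes of the list were called higher. The SE and adjusted p above use the spread of all 36 libraries. Usp18 stood at 28.8, 42.8 and 3.52 CPM in the wild-type halofuginone libraries. The part of that spread in the count of 7 was not tested.

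Lipid synthesis genes fell together: 30 of 32 genes of sterol and fatty acid synthesis fell and none rose, against 21.0% of all tested genes lower, with a median of -1.23. These genes are known targets of SREBP transcription factors. Hmgcs1, which starts the mevalonate pathway, fell from 295, 323 and 343 CPM to 46.0, 52.0 and 40.0 CPM (-2.80 ± 0.20 log2, edgeR adjusted p = 1.16e-12). Dhcr7, the last step of cholesterol synthesis in one of its branches, fell from 35.1, 31.1 and 40.8 CPM to 4.69, 6.24 and 3.92 CPM (-2.85 ± 0.22 log2). Nsdhl, an intermediate step, fell from 60.3, 69.0 and 64.8 CPM to 10.8, 16.7 and 10.1 CPM (-2.37 ± 0.18 log2). The 2 groups did not overlap for any of these 3 genes, which their choice among the largest falls requires.

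Insig1, which holds SREBP in the ER, fell by 2.00. Fatty acid synthesis took part, with Fasn at -1.01, Acly at -1.15 and Scd2 at -1.69. Srebf2 and Srebf1, the SREBP genes, fell by 0.68 and 0.48. Pmvk (-0.33) did not pass.

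No cytosolic heat shock chaperone rose with edgeR or DESeq2 (2 at an unadjusted edgeR p under 0.05) and 14 of 21 fell, with a median of -0.33. Hspa8, the constitutive HSP70, fell from 1016, 1030 and 1026 CPM to 348, 383 and 304 CPM (-1.57 ± 0.08 log2, edgeR adjusted p = 1.9e-15), and Hsph1, its exchange factor, from 357, 383 and 374 CPM to 126, 135 and 118 CPM (-1.55 ± 0.11 log2). Dnajb1 fell by 0.97 and Hsp90ab1 by 0.33, whereas Hsp90aa1 had 0.12 and Hsf1, the regulator of these genes, -0.12, and both did not pass. The call of Hsp90ab1 was lost without DMSO library 3, halofuginone library 1 or halofuginone library 3. Hspa8 holds small nucleolar RNA genes in its introns. With the replicate number as a block 2 of the 21 were called higher, and 1 was with no filter on low counts, with only the compared groups, or without halofuginone library 2.

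ER chaperones did not move as a group. Of 30 genes of ER folding, degradation and stress sensing, 6 rose and 10 fell, with a median of -0.20. The share of rises was near the 21.2% of all tested genes, and the falls were 33.3%, against 21.0%. Atf6, a stress sensor, rose from 37.1, 35.5 and 43.5 CPM to 122, 119 and 139.7 CPM (1.71 ± 0.17 log2). Ern1, the gene of the sensor IRE1, rose from 11.7, 8.54 and 11.2 CPM to 21.7, 21.0 and 24.1 CPM (1.09 ± 0.20 log2). Xbp1 rose by 0.94. Herpud1, of ER-associated degradation, rose from 49.3, 55.0 and 63.2 CPM to 162, 158 and 202 CPM, and Ero1l, an oxidase of disulfide formation, from 43.5, 41.1 and 32.4 CPM to 124, 120.1 and 140.2 CPM. Hspa5, the main ER chaperone BiP, rose by 0.83. Calr, Pdia4, Pdia6 and Hsp90b1, which fold secreted proteins, fell by 0.77, 0.67, 0.57 and 0.36, that of Hsp90b1 being lost without DMSO library 2, halofuginone library 1 or halofuginone library 2.

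Collagen genes, named here because their proteins are rich in proline, went both ways. Of 17 chains 4 rose (23.5%, near the 21.2% of all tested genes) and 8 fell (47.1%, against 21.0%), with a median of -0.30. Col1a1 and Col1a2, the chains of type I collagen, fell by 0.46 and 0.39, Col3a1 by 0.56 and Col6a1 from 335, 308 and 353 CPM to 203, 219 and 193 CPM (-0.70 ± 0.09 log2). Col5a3 rose from 8.66, 10.1 and 9.92 CPM to 21.0, 24.6 and 24.8 CPM (1.29 ± 0.20 log2). The calls of Col1a1 and Col3a1 were lost without halofuginone library 3, and that of Col1a1 also without DMSO library 1 or 3 or halofuginone library 1. Collagen processing genes were lower in most cases, with 13 of 19 genes lower and 2 higher (median -0.49). P4ha2, a prolyl hydroxylase of collagen, fell from 73.2, 74.0 and 80.3 CPM to 37.5, 36.1 and 27.4 CPM (-1.17 ± 0.12 log2), and the cross-linking oxidases Lox and Loxl3 by 0.91 and 1.03, while Loxl4 rose by 0.89. The other rise, that of Loxl2 (0.33), was lost in 5 of the 6 fits without 1 library. Loxl3 overlaps Htra2.

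In TGF-beta signalling 9 of 19 genes rose (47.4%, against 21.2% of all tested genes) and 3 fell (15.8%, against 21.0%), with a median of 0.22. Ctgf, a target of the pathway, rose from 131, 126 and 154 CPM to 253, 259 and 338 CPM. Smad6, an inhibitor of signalling, fell from 6.91, 5.46 and 7.64 CPM to 1.62, 0.879 and 1.29 CPM (-2.40 ± 0.43 log2), and the other inhibitor, Smad7, rose by 0.77. Of the ligands, Tgfb3 fell from 27.8, 30.8 and 33.2 CPM to 9.01, 9.86 and 7.43 CPM (-1.80 ± 0.20 log2), Tgfb2 rose by 0.89 (lost without halofuginone library 3) and Tgfb1 (-0.25) did not pass. Acta2, the actin of myofibroblasts, had -0.49 and did not pass. The 9 rises became 5 without halofuginone library 3.

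Some nuclear genes of the respiratory chain fell. Of 36 genes of complex I, 9 fell and none rose (25.0% against 21.0% of all tested genes lower), with a median of -0.22, and of 39 genes of complexes II to V, 15 fell and none rose (38.5%), with a median of -0.24. Uqcrh, a subunit of complex III, stood apart: it fell from 171, 208 and 160.0 CPM to 54.6, 63.6 and 59.7 CPM (-1.60 ± 0.23 log2, edgeR adjusted p = 1.34e-06). Ndufv3, of complex I, fell from 32.1, 32.02 and 33.5 CPM to 16.1, 19.6 and 18.0 CPM (-0.86 ± 0.13 log2), and Cox7a2, of complex IV, by 0.87. None of the 13 mRNAs of mitochondrial DNA passed the edgeR threshold in either direction, nor did any with DESeq2, 1 had an unadjusted edgeR p under 0.05 (lower), and their median was -0.23. With no filter on low counts or with only the compared groups, 3 of them, ND1, ND2 and ND3, passed as lower (log2 fold changes in the comparison as reported -0.52, -0.32 and -0.39). The complex I count became 5 without DMSO library 2, halofuginone library 1 or halofuginone library 3, and the count for the other complexes became 9 without halofuginone library 3. Cox7a2 overlaps Tmem30a.

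Of 24 chaperones, import factors and proteases of mitochondria, 7 rose (29.2%, against 21.2% of all tested genes) and 1 fell, with a median of 0.05. Lonp1, the main protease of the matrix, rose from 237, 257 and 265 CPM to 673, 688 and 668 CPM (1.42 ± 0.12 log2, edgeR adjusted p = 3.83e-11), Dnaja3, a matrix co-chaperone, from 83.4, 83.5 and 88.2 CPM to 175, 179 and 175 CPM (1.05 ± 0.11 log2), and Hspa9, the HSP70 of mitochondria, from 1257, 1328 and 1200 CPM to 2164, 2206 and 2584 CPM (0.88 ± 0.10 log2). Hspd1 (-0.06) and Hspe1 (-0.14), which form the chaperonin, did not pass, nor did the protease gene Clpp (0.03). The fall, that of Htra2 (-0.30), was lost without DMSO library 2, halofuginone library 1 or halofuginone library 3. Of 77 mitochondrial ribosomal protein genes 12 rose and 17 fell (15.6% and 22.1%, near the shares of all tested genes), with a median of -0.03. Mrpl34 fell from 42.1, 40.7 and 40.1 CPM to 16.2, 24.9 and 13.4 CPM. The rises became 3 without DMSO library 3, 6 without DMSO library 1 or halofuginone library 2, and 7 without halofuginone library 3, and the falls became 10 without DMSO library 2 or halofuginone library 3.

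Ribosome biogenesis rose in 19 of 38 genes and fell in none, with a median of 0.32. Nop14, an assembly factor of the small subunit, rose from 181, 188 and 199 CPM to 393, 393 and 435 CPM (1.10 ± 0.12 log2, edgeR adjusted p = 3.88e-09), and Wdr43 and Nop58, of the same process, by 1.05 and 1.00. The 78 cytosolic ribosomal protein genes themselves did not follow, with 3 higher, 15 lower (19.2%, near the share of all tested genes) and a median of -0.19. The 15 falls became 6 without DMSO library 2 or halofuginone library 3 and 34 with the replicate number as a block. Rpl37a fell from 15.8, 16.1 and 14.6 CPM to 8.74, 10.5 and 7.93 CPM and Rpl10a rose from 68.2, 77.7 and 64.5 CPM to 117, 119 and 113 CPM. Ribosomal protein genes have many processed copies, so their counts are uncertain. Wdr43 holds a small nucleolar RNA gene.

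Antioxidant targets of NRF2 fell in 12 of 20 cases and rose in 4, with a median of -0.44. G6pdx, which makes NADPH, fell from 129, 128 and 129 CPM to 60.7, 68.5 and 49.5 CPM (-1.11 ± 0.15 log2, edgeR adjusted p = 4.33e-07), and Gstm1, a glutathione transferase, from 26.6, 26.1 and 29.0 CPM to 12.1, 14.9 and 11.1 CPM (-1.10 ± 0.19 log2). Nqo1, a quinone reductase, fell by 0.56 and Cat, catalase, by 0.84. Sqstm1, the autophagy receptor p62, rose from 376, 419 and 345 CPM to 1173, 1173 and 1362 CPM (1.70 ± 0.14 log2), Hmox1, heme oxygenase, by 0.89, and Nfe2l2, the gene of NRF2, by 0.72. G6pdx overlaps Ikbkg.

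Glycolysis and glucose uptake held 5 rises and 11 falls among 19 genes (26.3% and 57.9%), with a median of -0.34. The shares of all tested genes were 21.2% and 21.0%. Pfkm and Pfkl, phosphofructokinases, fell from 95.5, 92.5 and 98.5 CPM to 34.2, 37.1 and 28.1 CPM and by 1.08 log2, while the third isoform, Pfkp, rose by 0.61. Arrdc4, a relative of Txnip that also lowers glucose uptake, rose from 1.48, 1.43 and 0.78 CPM to 10.1, 8.05 and 10.1 CPM (2.94 ± 0.22 log2), and Hk2, a hexokinase, rose by 1.30. Ldha and Gapdh fell by 0.42 and 0.41. Slc16a3, a lactate exporter, fell from 1.53, 1.85 and 1.29 CPM to 0.405, 0.385 and 0.165 CPM. The 11 falls became 7 without halofuginone library 3, Ldha and Gapdh among those lost, and Ldha was also lost without DMSO library 2 or halofuginone library 1. Of 19 genes of autophagy and lysosomes 3 rose (15.8%, against 21.2% of all tested genes) and 7 fell (36.8%, against 21.0%), with a median of -0.11. Ulk1, the kinase that starts autophagy, fell from 36.6, 30.5 and 38.5 CPM to 15.8, 13.3 and 12.01 CPM. Map1lc3b, a marker of autophagosomes, fell by 0.55. Atg3 and Atg12 rose by 0.67 and 0.77. Pfkm overlaps Senp1, Slc16a3 overlaps Csnk1d, and Atg12 overlaps Ap3s1.

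**Figure D2:**
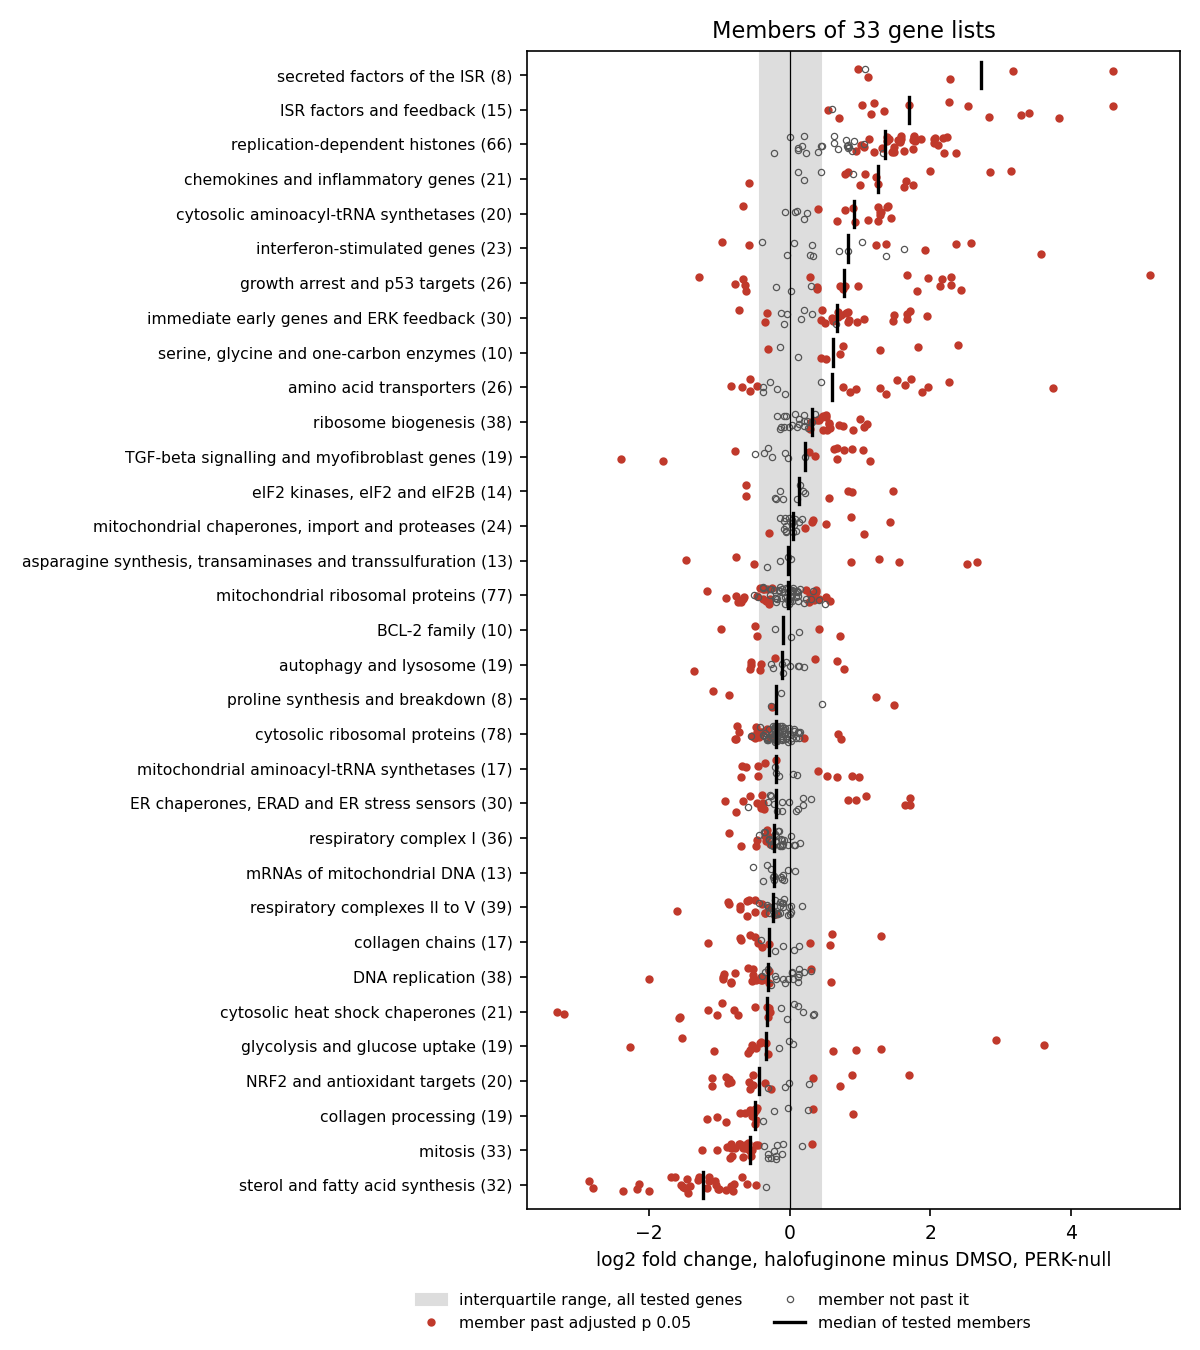
Log2 fold change with halofuginone against DMSO in PERK-null fibroblasts for the tested members of 33 gene lists, ordered by list median (number tested in brackets). Filled points passed an adjusted p of 0.05, open points did not, and the grey band is the interquartile range of all tested genes (-0.42 to 0.44). 29 members with under 20 counts in a group's 3 libraries are not drawn but enter the medians, which run from -1.23 for lipid synthesis to 2.73 for secreted factors.

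Whether the response was the same in wild-type cells was tested as the response of PERK-null cells minus that of wild-type cells. It differed for 5615 of 16065 genes (35.0%, edgeR adjusted p under 0.05), with 2807 positive (17.5%) and 2808 negative (17.5%) differences. This test and the comparison above share the 6 PERK-null libraries, so its values are given beside the levels and not as a second finding. Scaled by total counts alone, the median of this difference over all genes was 0.105 in place of 0.00127, so values are relative to the TMM scale. A negative difference means a smaller rise, or a larger fall, in PERK-null cells.

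Among called genes with a mean log2 CPM of 2 or more and over 3 counts in each of the 12 libraries, the 4 most negative differences were those of Cxcl10, Il11, Arc and Hist1h1c. Histone genes of lower level had more negative ones, at -4.65 ± 0.94 log2 for Hist1h2bn and -4.33 ± 0.62 for Hist1h1d. In the wild-type halofuginone libraries they stood at 11.6, 10.7 and 54.8 CPM and at 20.3, 16.5 and 63.2 CPM, with library 3 well above the others. Il11, a cytokine of fibrosis, went from 2.60, 3.57 and 2.91 CPM to 156, 158 and 144 CPM in wild-type cells and from 1.67, 1.76 and 2.85 CPM to 7.31, 4.78 and 7.35 CPM in PERK-null cells, a difference of -4.03 ± 0.31 log2 (edgeR adjusted p = 8.18e-11). Cxcl10, a chemokine induced by interferon, reached overlapping levels in both genotypes with halofuginone, 32.1, 50.7 and 25.5 CPM in wild-type and 37.8, 37.8 and 31.4 CPM in PERK-null cells. It started at 0.857, 0.45 and 0.619 CPM in wild-type and 10.6, 13.2 and 10.1 CPM in PERK-null cells, so its difference was -4.15 ± 0.49 log2. Arc, a cytoskeletal early response gene, went from 1.29, 1.80 and 2.41 to 27.2, 31.5 and 80.8 CPM in wild-type cells and from 4.15, 3.995 and 4.89 to 7.53, 4.94 and 10.1 CPM in PERK-null cells, where its log2 fold change of 0.79 did not pass (-3.88 ± 0.49 difference). Il11 overlaps Tmem190.

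By group, 18 of 30 immediate early genes, 11 of 21 inflammatory genes and 38 of 66 histone genes had negative differences, and 0 of these had a positive one, by edgeR, by DESeq2 and at an unadjusted edgeR p under 0.05. Hist1h1c stood at 429, 352 and 799 CPM in the halofuginone libraries of wild-type cells, with library 3 well above the other libraries, and differed by -3.60 ± 0.34 log2. Lif differed by -2.67 ± 0.21 and Atf3 by -2.45 ± 0.33. Among ISR factors 8 of 15 differences were negative and 2 positive (median -0.64). Atf4 (-0.66), Chac1 (-0.97) and Ddit3 (-0.91) were among the negative ones, the calls of Chac1 and Ddit3 being lost without wild-type DMSO library 3, and that of Ddit3 also without wild-type halofuginone library 2. Trib3 (0.32), Asns (-0.28) and Psat1 (-0.002) did not pass, nor did Eprs (-0.11).

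Among the most positive differences within the same limits, 2 genes had a control level in wild-type cells far above that in PERK-null cells. Acot2 stood at 13.4, 16.6 and 12.9 CPM and 20.6, 22.5 and 10.9 CPM in wild-type DMSO and halofuginone libraries (3.36 ± 0.36 log2 difference, edgeR adjusted p = 3.05e-08). Kif21b, a kinesin, rose from 0.847, 0.827 and 0.995 CPM to 13.2, 17.6 and 14.6 CPM in PERK-null cells and stood at 16.8, 18.5 and 18.9 CPM and 30.4, 48.7 and 15.0 CPM in wild-type cells (3.29 ± 0.49). Cyp26b1, which degrades retinoic acid, moved in opposite directions, from 2.32, 2.51 and 4.41 CPM to 11.5, 13.1 and 14.2 CPM in PERK-null cells and from 11.9, 11.2 and 10.03 CPM to 4.33, 5.10 and 3.76 CPM in wild-type cells (3.39 ± 0.29).

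Others fell less in PERK-null cells. Chst12, a sulfotransferase, fell from 21.2, 19.9 and 24.4 CPM to 1.18, 1.41 and 1.11 CPM in wild-type and from 13.0, 11.2 and 14.5 CPM to 5.04, 6.12 and 4.66 CPM in PERK-null cells (2.85 ± 0.28 difference). In complex I 21 of 36 differences were positive (median 0.53), in the other respiratory complexes 12 of 39 (0.41) and among cytosolic ribosomal proteins 24 of 78 (0.45), with 0 negative in these 3 lists by edgeR, by DESeq2 and at an unadjusted edgeR p under 0.05. Among mitochondrial ribosomal proteins 27 of 77 were positive and 2 negative (0.43), and in lipid synthesis 13 of 32 and 1 (0.56). Dna2, at 28.0, 20.2 and 31.8 CPM and 1.55, 0.879 and 0.74 CPM in wild-type cells, differed by 2.65 ± 0.39, and Pfkm by 2.06 ± 0.19.

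**Figure D3:**
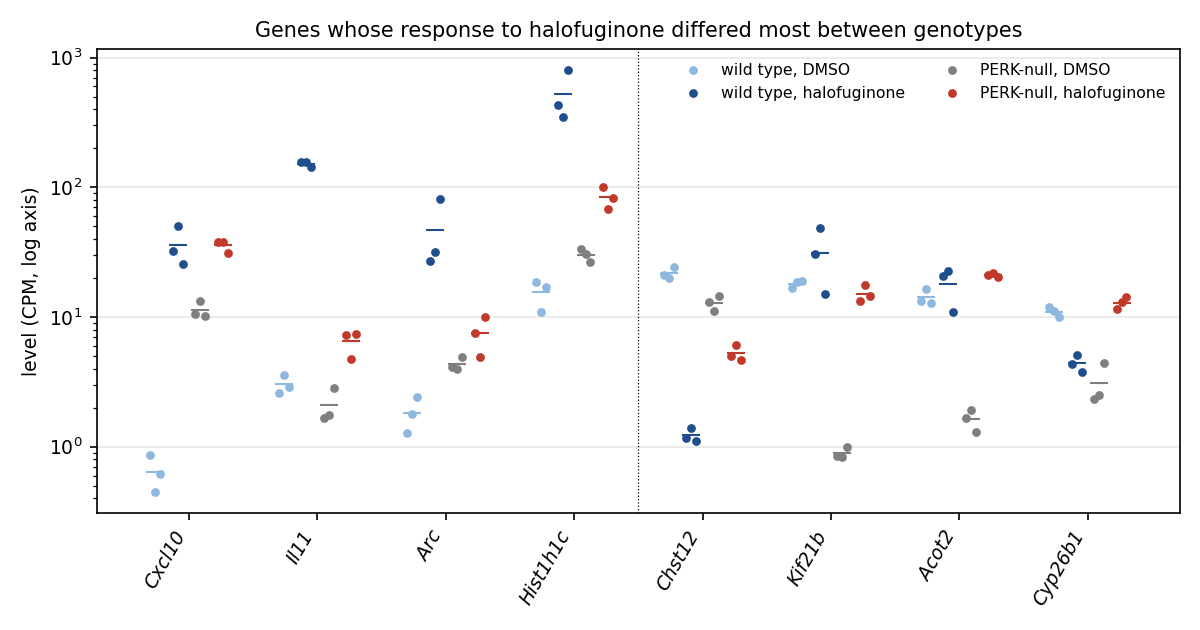
Level of the 4 genes with the most negative (left of the dotted line) and the 4 with the most positive difference, among called genes of mean log2 CPM 2 or more with over 3 counts in each library, between the responses of PERK-null and wild-type cells to halofuginone, in CPM on a log axis. Points are libraries (3 per group) and bars are means. Il11 rises to between 144 and 158 CPM in wild-type and to at most 7.35 CPM in PERK-null libraries, and Chst12 falls to at most 1.41 CPM in wild-type and to at least 4.66 CPM in PERK-null libraries.

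BtdCPU, the other kinase activator of the series, was compared with halofuginone directly in PERK-null cells, with no DMSO library in the difference. The 3 halofuginone libraries are those of the comparison with DMSO, so these values are not a second finding. The compounds differ in structure and target, their doses and times are not in the labels, and this is 1 pair. Halofuginone and BtdCPU differed for 5793 genes (36.1%), 2881 higher (17.9%) and 2912 lower (18.1%) with halofuginone (edgeR adjusted p under 0.05), 735 and 678 of these by more than 2-fold. Among called genes of mean log2 CPM 2 or more that had over 3 counts in each library of the lower group and did not overlap between the groups, Txnip differed most, at 8.48, 9.90 and 6.30 CPM with BtdCPU against 252, 181 and 339 CPM with halofuginone (4.96 ± 0.38 log2, adjusted p = 3.25e-11). The DMSO libraries lay between them. Lif was at 7.39, 7.74 and 7.33 CPM with BtdCPU, a range that falls within the DMSO values, against 55.0, 58.0 and 68.5 CPM (3.01 ± 0.15). Napb, which helps vesicles fuse, was at 1.85, 1.27 and 1.25 CPM against 11.5, 8.54 and 15.0 CPM (3.00 ± 0.33).

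Lower with halofuginone than with BtdCPU were Hspa1b (-2.25 ± 0.28), Dennd3 (-2.50 ± 0.29) and Pxylp1 (-2.24 ± 0.29). Rnr1, the name under which the table lists a ribosomal RNA, stood at 1736, 1360 and 1661 CPM with BtdCPU and 224, 232 and 268 CPM with halofuginone (-2.71 ± 0.24). Its level also depends on how fully ribosomal RNA was removed from a library. The ISR factors differed by -0.34 (Atf4) to 2.35 log2 (Atf3), with a median of 0.53. Atf3 (2.35 ± 0.20, adjusted p = 1.75e-10) and Ppp1r15a (1.44 ± 0.21) were higher with halofuginone. Among other readouts Ddit3 had 0.29 ± 0.20 (adjusted p = 0.28) and Trib3 0.36 ± 0.26 (adjusted p = 0.299), neither past the threshold, while Chac1 (0.56 ± 0.20), Asns (0.59 ± 0.10) and Psat1 (0.32 ± 0.11) were higher with halofuginone and Atf4 (-0.34 ± 0.11) was higher with BtdCPU. The 95% interval of the difference was -0.13 to 0.71 for Ddit3 and -0.18 to 0.90 for Trib3. Without 1 library the calls were lost for Chac1 (BtdCPU library 2 or 3, halofuginone library 1 or 3), Psat1 (BtdCPU library 1 or 3, halofuginone library 2) and Atf4 (BtdCPU library 1, halofuginone library 3).

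By group, halofuginone gave higher levels than BtdCPU for 38 of 66 histone genes, 20 of 30 immediate early genes, 14 of 21 inflammatory genes, 14 of 20 cytosolic synthetases and 9 of 15 ISR factors. It gave lower levels for 18 of 32 lipid synthesis genes, 13 of 19 collagen processing genes and 11 of 21 heat shock chaperones. Opposite calls in these lists numbered 0, 4, 0, 1 and 1 in the first set and 1, 3 and 1 in the second. Among nuclear genes of respiratory complexes, 4 of 36 for complex I and 9 of 39 for the others were lower and 0 higher, by edgeR, by DESeq2 and at an unadjusted edgeR p under 0.05. These are 11.1% and 23.1%, against 18.1% of all tested genes lower. Of the mRNAs of mitochondrial DNA, 2 of 13 were higher with halofuginone (15.4%, near the 17.9% of all tested genes).

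**Figure D4:**
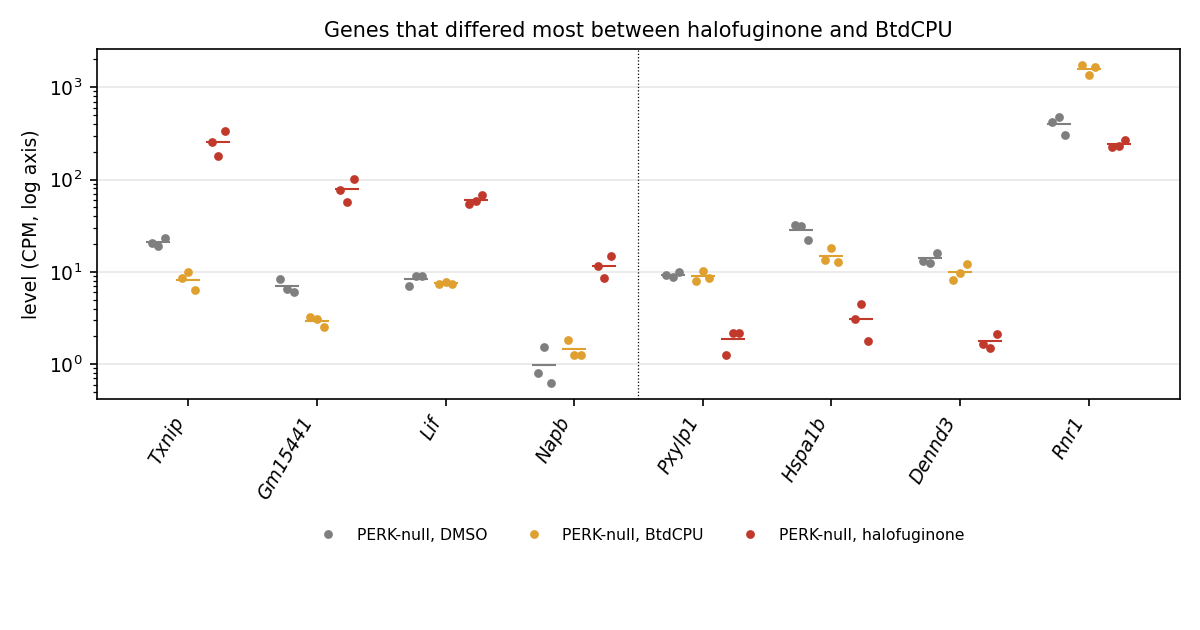
Level of the 4 genes highest (left of the dotted line) and the 4 lowest with halofuginone relative to BtdCPU in PERK-null fibroblasts, within the limits on level, counts and overlap given for Txnip, with the DMSO libraries beside them, in CPM on a log axis. Points are libraries (3 per group) and bars are means. Txnip lies at 181 to 339 CPM with halofuginone and at 6.30 to 9.90 CPM with BtdCPU.

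The same compound was also added together with thapsigargin, an inhibitor of the ER's calcium pump, and that pair of groups shares no library with the comparison above. Against thapsigargin alone, halofuginone with thapsigargin changed 8462 genes in PERK-null cells (52.7%, edgeR adjusted p under 0.05), 4047 higher (25.2%) and 4415 lower (27.5%). Of the 3413 genes raised by halofuginone alone, 2750 were also raised here, which is 80.6% of that list and 68.0% of the list with thapsigargin. Of the 3372 genes lowered alone, 2806 were lowered here (83.2% and 63.6%). Opposite calls were 25 and 16. Across the 16065 genes the log2 fold changes correlated with Pearson's r of 0.669, a description only, since genes are not independent replicates.

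Some groups had calls mostly in the direction seen without thapsigargin, and others did not. With thapsigargin 13 of 15 ISR factors rose, all 13 of them among the 14 that rose without it, and Ddit4 fell (-0.88 ± 0.26). In other groups 28 of 32 lipid synthesis genes fell (27 shared), 29 of 33 mitotic genes fell (21 shared) and 50 of 66 histone genes rose (37 shared). ER chaperones and sensors had 13 rises and 4 falls in place of 6 and 10, with a median of 0.19 in place of -0.20. Mitochondrial ribosomal proteins had 25 rises and 14 falls (32.5% and 18.2%) in place of 12 and 17 (15.6% and 22.1%). TGF-beta genes had 7 and 7 (36.8% and 36.8%) in place of 9 and 3 (47.4% and 15.8%). With thapsigargin 25.2% of all tested genes were called higher and 27.5% lower, against 21.2% and 21.0% without it. The part of these shifts that follows from more calls among all genes was not tested. Gadd45a rose by 4.55 ± 0.24, Atf3 by 4.26 ± 0.22 and Hspa1b changed by -2.86 ± 0.27 log2. Atf4 did not pass here (0.21 ± 0.11, edgeR adjusted p = 0.107). Ribosome biogenesis genes rose in 33 of 38 cases, including the 19 that rose without thapsigargin, with a median of 1.12 in place of 0.32.

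Within the same limits, the largest changes with thapsigargin included genes with smaller values without it. Ctgf, a matricellular target of TGF-beta and YAP, stood at 11.4, 11.6 and 7.05 CPM with thapsigargin alone and 178, 169 and 223 CPM with both (4.24 ± 0.36 log2). Without thapsigargin the same gene had moved by 1.05 ± 0.31. Hbegf went from 4.88, 4.15 and 2.94 CPM to 92.2, 82.2 and 96.9 CPM (4.50 ± 0.22). For both genes the thapsigargin libraries lay below all DMSO libraries, and those with both compounds lay above all DMSO libraries and below all libraries with halofuginone alone. Among the largest falls, Mest (-3.19 ± 0.19), Cacna1a, a calcium channel subunit (-3.23 ± 0.21), AI464131 (-3.20 ± 0.29) and Dennd3 (-3.52 ± 0.28) were all lower without thapsigargin too, by 0.88, 1.35, 2.55 and 2.98. The difference between the responses with and without thapsigargin was not tested. Mest overlaps Copg2.

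**Figure D5:**
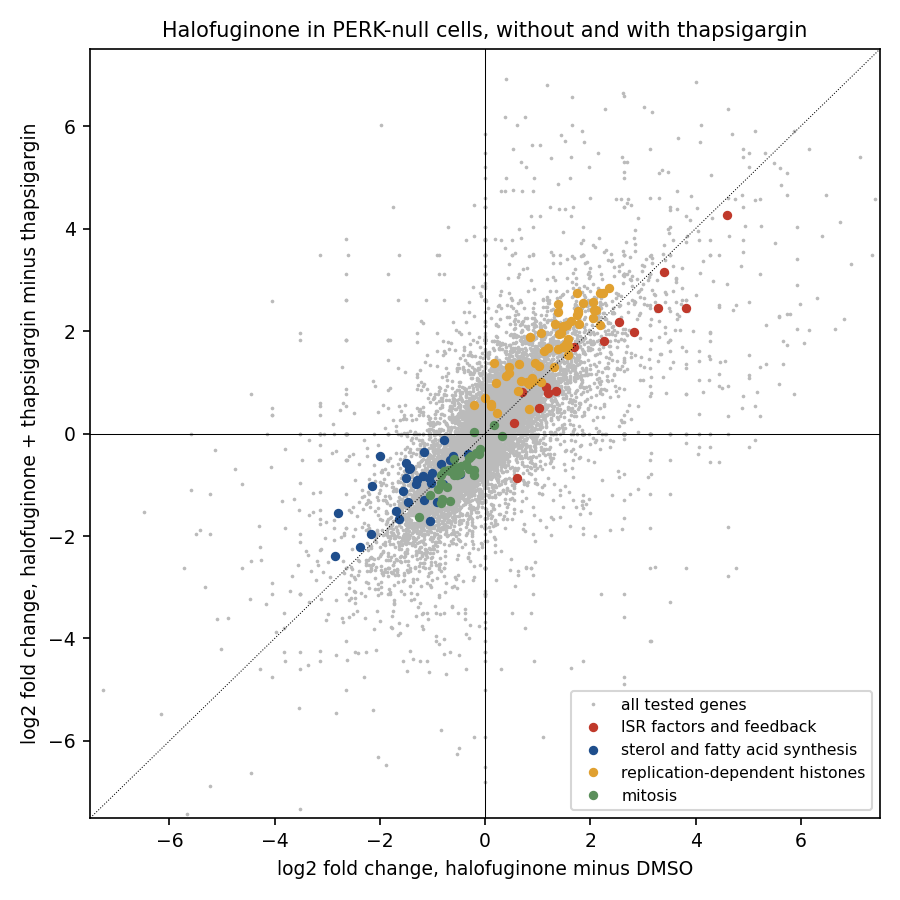
Log2 fold change with halofuginone in PERK-null fibroblasts, against DMSO (horizontal axis) and, with thapsigargin in both groups, against thapsigargin (vertical axis). Grey points are the 16065 tested genes (5 lie outside the axes), coloured points are 4 gene lists without members of few counts, and the dotted line marks equal values. ISR factors and histones lie mostly in the upper right and lipid synthesis and mitotic genes in the lower left.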

How the data were processed

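The deposited table holds 1 column per library of estimated counts per gene symbol (the authors' values, not normalized), in which 0.025 stands in place of 0 (50.6% of values) while 2.69% of the rest have decimals, as tested on the file. Per the submitters' processing notes the genome build was GRCm39 and DESeq was among the tools, while the aligner and counting tool are not given in the sources used here. Counts were rounded to whole numbers with 0.025 set to 0. The 27 entries whose names had turned into dates (0.206% to 0.278% of a library) were left out, and 86 entries of 39 repeated symbols were summed. Columns were assigned to samples by the genotype, treatment and replicate number in their names.

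edgeR 4.0.16 (R 4.3.3) was run on all 36 libraries (32454257 to 37178107 counts) with 12 group means, TMM scaling, its expression filter by group and the robust quasi-likelihood test. The groups share 1 estimate of spread (common dispersion 0.0199, 24 residual degrees of freedom), Benjamini-Hochberg adjustment covered all 16065 tested genes, and genes with an adjusted p under 0.05 were called. CPM were computed from TMM-scaled library sizes, and the SE is the log2 fold change over the square root of F. The 95% interval against BtdCPU uses a t distribution with 24 degrees of freedom. The scripts were tested on simulated counts. No pair of libraries of a group agreed within sampling noise (chi-square per degree of freedom at least 9.66). Ratios of small counts have exact binomial 95% intervals.

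Gene names, overlapping neighbours and promoter sequences come from RefSeq tables of GRCm38.p6 (14250 symbols matched and 736 by an older symbol), and no coordinates of the files' build were used. Members and gene lists were chosen with earlier results of these data known. Genes are named by a rule: the 12 largest called rises and falls of mean log2 CPM 2 or more, no overlap and over 3 counts in each library of the lower group, for the other comparisons the 4 largest each way, 8 fixed genes, and in each list up to 4 members of largest change plus members whose role a sentence is about. Hspa1a, Ddit4, E230016M11Rik and other neighbours are named for a stated role or an overlap. Alternatives were DESeq2 1.42.0, its size factors in edgeR, library size only, no filter, only the compared groups, the replicate number as a block, a test against a fold of 1.5 and each library left out. Protein sequences were not analysed here, and some genes that the rule names are not reported here.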

Additional observations from a re-analysis of the deposited data

Results flagged for a closer look

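With 3 replicates in each group, no library was tested for standing apart from its group. Of 226 genes named in the report, 110 responded differently to halofuginone in the 2 genotypes (edgeR adjusted p of the difference at most 0.0496), 57 with a positive and 53 with a negative difference of PERK-null minus wild-type log2 fold change. Among all 16065 tested genes 5615 differed (35.0%). Some of the 226 were named for a large genotype difference or a large change in the same libraries, so their count depends on that choice. A genotype difference cannot be told apart from a difference between the lines.

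The difference was smaller than 0 for histone genes, at -4.65 for Hist1h2bn, -4.33 for Hist1h1d and -3.60 for Hist1h1c. In each of these histone genes wild-type halofuginone library 3 lay well above the other libraries of its group. In inflammatory genes it was -4.15 for Cxcl10, -4.03 for Il11, -2.98 for Tnfaip3, -2.67 for Lif and -1.70 for Ptgs2. Immediate early genes and their regulators had -3.88 for Arc, -2.52 for Fos, -1.84 for Nr4a1, -1.66 for Klf6, -1.58 for Egr1, -1.31 for Klf4, -0.95 for Hbegf, -0.85 for Myc and -0.69 for Spred1. Factors of the stress response and growth arrest had -2.45 for Atf3, -2.41 for Gadd45g, -0.97 for Chac1, -0.92 for Gadd45a, -0.91 for Ddit3, -0.85 for Ppp1r15a, -0.74 for Ppp1r15b, -0.66 for Atf4, -0.64 for Cebpg, -0.48 for Mcl1, -0.63 for Vegfa and -0.55 for Sqstm1. For TGF-beta and matrix genes it was -2.21 for Tgfb2, -1.52 for Ctgf, -1.29 for Col5a3, -1.02 for Smad7 and -0.60 for Loxl4. Chaperone and ER genes had -0.89 for Ern1, -0.80 for Herpud1, -0.76 for Hspa9, -0.73 for Atf6, -0.58 for Hspa5, -0.44 for Hspa8 and -0.42 for Dnajb1. Amino acid and tRNA genes had -0.82 for Slc7a1, -0.71 for Slc3a2, -0.67 for Aldh4a1 and -0.47 for Nars2. The remaining negative differences were -1.16 for Gm15441, -0.94 for Vgf, -1.27 for Ndrg1, -1.09 for Polr2a, -1.77 for Dennd3, -0.71 for Gins3, -0.75 for Wdr43 and -0.98 for Arrdc4.

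Positive differences in amino acid and tRNA genes were 0.91 for Aldh1l2, 0.63 for Mthfd1, 1.19 for Pycr1, 0.87 for Pycrl, 1.61 for Cth, 1.09 for Slc6a9, 0.99 for Impact, 1.03 for Pars2, 0.49 for Aars2, 0.53 for Qars and 0.44 for Kars. In growth control and replication they were 2.65 for Dna2, 1.75 for Trp53, 1.58 for Ddit4, 1.16 for Sesn2, 0.89 for Cdkn1a, 1.07 for Kif20a, 0.83 for Bok, 0.74 for Ccne1, 0.57 for Mcm7, 0.37 for Mcm2 and 0.37 for Mcm6. A positive difference does not give the level. With halofuginone Cdkn1a stood at 22.8, 23.0 and 20.3 CPM in PERK-null cells and at 137, 152 and 144 CPM in wild-type cells. In lipid synthesis they were 0.94 for Hmgcs1, 0.89 for Acly, 0.84 for Dhcr7, 0.65 for Nsdhl and 0.63 for Scd2. In matrix and ER genes they were 1.56 for Col3a1, 1.48 for Loxl3, 1.03 for Tgfb3, 0.74 for P4ha2, 0.63 for Col1a2, 0.60 for Col6a1, 0.86 for Pdia4 and 0.66 for Pdia6. In mitochondrial, ribosomal and chaperone genes they were 1.28 for Mrpl34, 0.91 for Rpl37a, 0.73 for Ndufv3, 0.71 for Cox7a2, 0.64 for Hspe1 and 0.38 for Hsph1. In glycolysis and antioxidant genes they were 2.06 for Pfkm, 0.86 for Pfkl, 0.70 for Ldha, 1.32 for G6pdx, 1.23 for Gstm1, 0.91 for Nqo1 and 0.70 for Cat. The remaining positive differences were 3.39 for Cyp26b1, 3.36 for Acot2, 3.29 for Kif21b, 2.85 for Chst12, 1.88 for Cdsn, 1.42 for Tmem119, 1.19 for Cacna1a, 0.83 for Wdr6 and 0.79 for Vldlr.

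Among these 110 calls, those lost when 1 wild-type or PERK-null library was left out, in 1 fit or more, were the ones of Aldh4a1, Atf6, Ccne1, Cebpg, Chac1, Cox7a2, Ddit3, Dhcr7, Dnajb1, Ern1, Gadd45a, Gins3, Gm15441, Hspa5, Hspe1, Hsph1, Impact, Loxl4, Mcm6, Myc, Nars2, Nsdhl, Polr2a, Ppp1r15a, Scd2, Slc7a1, Smad7, Sqstm1, Vegfa, Vgf and Vldlr.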

How the results depend on the processing

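Tested against a fold of at least 1.5, the counts fell to 1874 for halofuginone against DMSO (1026 higher, 848 lower), 1674 for the genotype difference (717 and 957), 1070 against BtdCPU (553 and 517) and 3561 with thapsigargin (1723 and 1838). Under the other alternatives every count of changed, higher or lower genes in the 4 comparisons stayed within 1.5 times. DESeq2 gave 6932, 5922, 6086 and 8541 changed genes. Without 1 library, the counts of changed genes lay at 5513 to 6478, 4658 to 5728, 4467 to 5520 and 7543 to 7865. With the replicate number as a block they were 8262, 7292, 7329 and 9646. Same-numbered libraries of the PERK-null DMSO and halofuginone groups deviated together little (r of 0.038, 0.012 and 0.083), and halofuginone library 2 did not correlate best with its own number. In the wild-type groups r was 0.064, 0.151 and 0.229 for the same number and -0.179 to 0.0595 for other numbers. Between PERK-null thapsigargin libraries with and without halofuginone it was 0.031, 0.018 and 0.131 for the same number and -0.107 to 0.0835 for other numbers. For PERK-null halofuginone and BtdCPU libraries r was 0.044, 0.046 and 0.042 for the same number. Other numbers gave -0.0394 to -0.00479 there. The numbers were not taken as a pairing in the reported fits, although the block called more genes in each comparison. An effect shared by libraries of 1 number was not tested. Scaled by total counts alone, the genotype difference had a median of 0.105 over all genes in place of 0.00127, and 59.2% of calls were positive in place of 50%. Of 858 list counts under the alternatives of the halofuginone comparison, 751 stayed within 1.5 times. Among the 226 genes named, 0 of 1356 values without 1 library reversed, 57 lost their call (19 genes) and 6 gained one, and 60 genes lost it against a fold of 1.5, a test built to call fewer genes. The cause of the other changes was not tested. Depth limits the genes of few counts: folds of genes at 3 counts or fewer in a group are given as counts.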
